A study of Homo sapiens with 9 samples.

Results

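The transcripts described here encode the core proteins of the microRNA pathway: the nuclear Microprocessor subunits DROSHA and DGCR8, the cytoplasmic RNase DICER1, the Argonaute proteins AGO1 to AGO4, and the TNRC6 (GW182) proteins TNRC6A, TNRC6B and TNRC6C. These 10 genes were taken by symbol from the 36601 Ensembl genes counted in each library, and all 10 passed the filter on low counts, which left 15560 genes for testing. The material was RNA of LX2, an established human line of hepatic stellate cells. Stellate cells store vitamin A in the quiescent liver and become collagen-producing myofibroblasts in fibrosis. The cells had received siRNA against YAP (siYAP, 3 libraries), siRNA against TAZ (siTAZ, 3 libraries) or non-targeting siRNA (siNT, 3 libraries), each at 20 nM by lipid transfection and for 7 days, with fresh medium every 3 days. YAP (gene YAP1) and TAZ (gene WWTR1) are transcriptional coactivators restrained by the Hippo kinases, and they reach DNA through TEAD factors. No untransfected cells were among the samples, so every group, siNT included, carried siRNA, and siRNAs themselves work inside Argonaute proteins. The cells are 1 established line, and the protocols name no guide sequences.

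In the canonical pathway, the Microprocessor cuts hairpins out of primary microRNA transcripts in the nucleus, and Exportin-5 carries them to the cytoplasm. Dicer trims each hairpin to a short duplex, and an Argonaute protein keeps the guide strand of it. Argonaute binds messages through the guide's seed, and TNRC6 proteins bridge Argonaute to the deadenylases that shorten and silence those messages. In stellate cells microRNAs are known as regulators of collagen synthesis and of the change to a myofibroblast.

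The libraries held 16498508 to 18752805 reads assigned to genes, and the 10 transcripts had 293 to 5038 counts per library. Values below are CPM (counts scaled by TMM to a common library size), and the spread of CPM between the 3 libraries of a group had a coefficient of variation of 1.61% to 15.7% (median 4.54%). YAP1 averaged 26.3 ± 1.49 CPM in siYAP, 170 ± 8.01 CPM in siTAZ and 209 ± 4.11 CPM in siNT cells (SD, n = 3 each), and WWTR1 averaged 75.8 ± 0.522, 9.53 ± 0.917 and 62.0 ± 5.50 CPM in siYAP, siTAZ and siNT cells, so each targeted transcript was low under its own siRNA. Against siNT, YAP1 was also lower with siTAZ (log2 fold change -0.3, adjusted p = 2.42e-08), and WWTR1 was higher with siYAP (0.29, adjusted p = 6.31e-05). These adjusted p-values come from edgeR's quasi-likelihood test. Of 11 stellate markers 10 had counts, and LRAT was at 0 counts in every library. DES had only 0 to 14 counts per library and did not pass the filter. The share of reads counted as no feature was 6.014% to 7.493% in siYAP, 5.526% to 5.628% in siTAZ and 4.734% to 5.127% in siNT libraries. As no counting settings are stated, reads within and outside genes cannot be told apart in it. The part of this share in the results was not tested. In RNA from whole cultures, fewer cells carrying a transcript and less of it per cell cannot be told apart.

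Called genes lay at every step of the microRNA machinery with either siRNA, but some genes and directions differed between the siRNAs. Calls were also common over all genes tested. With siYAP the median absolute log2 fold change of the 10 genes, 0.48, was near that of all genes, 0.45. With siTAZ these medians were 0.37 and 0.19. With siYAP, all 10 genes differed from siNT at an adjusted p under 0.05 (edgeR's quasi-likelihood test, Benjamini-Hochberg adjustment over all genes tested): DROSHA, DGCR8, DICER1 and AGO1 fell, and AGO2, AGO3, AGO4, TNRC6A, TNRC6B and TNRC6C rose. Of all genes tested, 67.1% were called in that comparison, 33.8% higher and 33.4% lower. The 3 libraries of siYAP and of siNT did not overlap in any of the 10, and in 70.5% of all genes they did not. With siTAZ, 8 of the 10 genes were called against siNT, where 34.6% of all genes were (16.4% higher, 18.2% lower): AGO2, AGO3, AGO4, DGCR8 and TNRC6A rose, DROSHA, DICER1 and TNRC6B fell, and AGO1 and TNRC6C did not pass. Those 8 were also the genes without overlap between siTAZ and siNT libraries, as 44.6% of all genes were. Setting siTAZ directly against siYAP, which tests the difference between the knockdowns, called 8 of the 10 genes, 4 of them higher and 4 lower with siTAZ, where 66.2% of all genes were called, 33.0% higher and 33.2% lower. The same number, 8, did not overlap there, against 68.2% of all genes. The siNT libraries serve both knockdown comparisons, so their fold changes are not independent of each other.

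**Figure D1:**
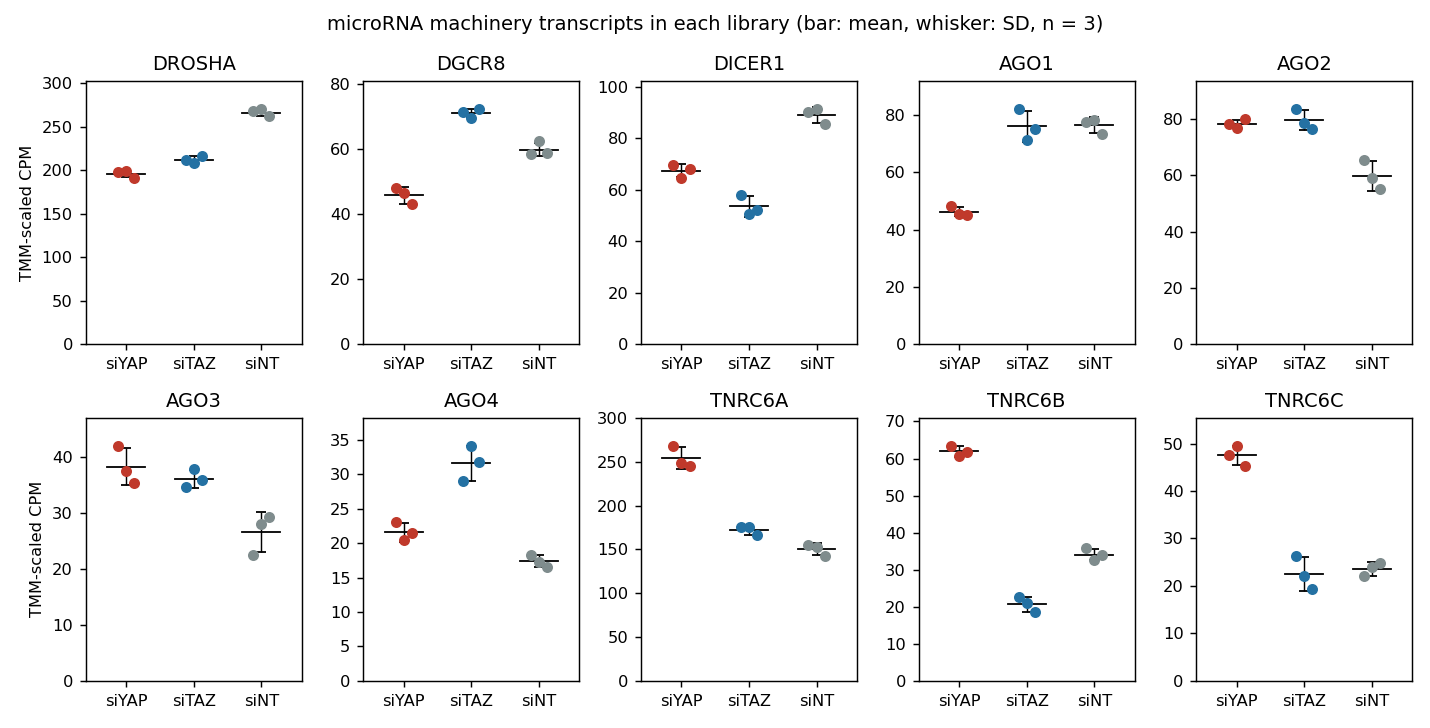
TMM-scaled CPM of the 10 transcripts in each of the 9 libraries, with 1 panel per gene and a linear axis from 0. Points are libraries, bars are group means and whiskers are SD (n = 3); the TNRC6B points form 3 separate levels, with siYAP at 60.7 to 63.4 CPM, siTAZ at 18.5 to 22.6 CPM and siNT at 32.6 to 35.8 CPM.

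The Microprocessor subunits moved together under siYAP and apart under siTAZ. DROSHA, the RNase III enzyme that cuts primary microRNAs (chr5:31400497-31532196, minus strand, GRCh38), had 198, 199 and 191 CPM in siYAP, 212, 208 and 216 CPM in siTAZ and 268, 270 and 262 CPM in siNT libraries. The 3 groups did not overlap, and both knockdowns lay below siNT. DROSHA was 1.36-fold lower in siYAP cells (log2 fold change -0.44, SE 0.04, adjusted p = 6.59e-17) and 1.26-fold lower in siTAZ cells (-0.33, SE 0.04, adjusted p = 2.44e-11). The siTAZ level exceeded the siYAP level by 0.11 on the log2 scale (SE 0.04, adjusted p = 0.00568).

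DGCR8, the double-stranded RNA-binding partner that positions DROSHA on the hairpin (chr22:20080232-20111877, plus strand), had 48.1, 46.4 and 43.0 CPM in siYAP, 71.4, 69.7 and 72.3 CPM in siTAZ and 58.5, 62.4 and 58.9 CPM in siNT libraries. The siNT libraries lay between the other groups without touching either. DGCR8 fell with siYAP (log2 fold change -0.39, SE 0.06, adjusted p = 1.13e-07) and rose with siTAZ (0.25, SE 0.06, adjusted p = 0.000534), and the groups differed by 0.63 for siTAZ against siYAP (SE 0.06, adjusted p = 1.56e-14). The DGCR8 message is itself a Microprocessor substrate in background knowledge, since the complex can cut hairpins within it and so limit its own partner. RefSeq places these microRNAs inside the DGCR8 gene, shown because they are the hairpin products of that cut, with the seed (bases 2 to 8) in capitals:
hsa-miR-3618 (chr22:20085797-20085818, plus strand): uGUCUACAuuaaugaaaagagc
hsa-miR-1306-5p (chr22:20086072-20086093, plus strand): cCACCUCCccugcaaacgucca
hsa-miR-1306-3p (chr22:20086112-20086129, plus strand): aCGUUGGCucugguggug
Their seeds differ from each other. The libraries were made from mRNA, so mature microRNAs were not measured and these sequences carry no level. DROSHA and DGCR8 thus changed in the same direction in siYAP cells and in opposite directions in siTAZ cells, where DROSHA was lower and DGCR8 higher than in siNT cells.

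DICER1, which dices the exported hairpin (chr14:95086228-95158010, minus strand), fell with both siRNAs and further with siTAZ. It had 69.6, 64.4 and 68.1 CPM in siYAP, 58.0, 50.6 and 52.0 CPM in siTAZ and 90.3, 91.2 and 85.5 CPM in siNT libraries, with no overlap between groups. The log2 fold change was -0.40 with siYAP (SE 0.06, adjusted p = 5.19e-09) and -0.73 with siTAZ (SE 0.06, adjusted p = 5.39e-17), which is a 1.66-fold decrease. Against siYAP, siTAZ cells had a log2 difference of -0.33 (SE 0.06, adjusted p = 1.32e-06). DICER1-AS1, an antisense gene on the opposite strand that shares 80 bases of exon with DICER1, had 0 to 17 counts per library; as no strand setting is given for the counts, reads of such pairs cannot be told apart.

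The Argonautes did not move as a block. In siYAP cells AGO1 fell while AGO2, AGO3 and AGO4 rose, and in siTAZ cells AGO2, AGO3 and AGO4 rose while AGO1 did not pass the test. AGO2 is the Argonaute known for slicing perfectly matched targets, the activity that siRNA knockdown rests on, and AGO1, AGO3 and AGO4 act in microRNA repression mainly without slicing.

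AGO1 (chr1:35869808-35930528, plus strand) had 48.2, 45.6 and 45.0 CPM in siYAP, 82.0, 71.3 and 75.1 CPM in siTAZ and 77.5, 78.4 and 73.3 CPM in siNT libraries. The siYAP libraries lay below all others, and the siTAZ and siNT libraries overlapped. AGO1 was 1.65-fold lower with siYAP than with siNT (log2 fold change -0.72, SE 0.06, adjusted p = 5.42e-17). With siTAZ the 95% interval of its log2 fold change against siNT was -0.12 to 0.11 (adjusted p = 0.963), and its sign turned under upper-quartile scaling. The difference between the knockdowns was 0.72 for siTAZ against siYAP (SE 0.06, adjusted p = 6.82e-17).

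AGO2 (chr8:140520156-140635619, minus strand) had 78.1, 76.8 and 79.8 CPM in siYAP, 83.4, 78.5 and 76.5 CPM in siTAZ and 65.5, 58.9 and 55.0 CPM in siNT libraries. All siYAP and siTAZ libraries lay above every siNT library and overlapped each other. AGO2 rose by a log2 fold change of 0.39 with siYAP (SE 0.06, adjusted p = 2.54e-08) and 0.41 with siTAZ (SE 0.06, adjusted p = 2.32e-08). The siTAZ against siYAP difference was 0.02, with a 95% interval of -0.09 to 0.14 (adjusted p = 0.726).

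AGO3 (chr1:35930718-36072500, plus strand) had 41.9, 37.5 and 35.3 CPM in siYAP, 34.6, 37.7 and 35.8 CPM in siTAZ and 22.5, 27.9 and 29.3 CPM in siNT libraries. Both knockdown groups again lay wholly above siNT and overlapped each other. The log2 fold change was 0.53 with siYAP (SE 0.08, adjusted p = 1.21e-07) and 0.44 with siTAZ (SE 0.08, adjusted p = 1.96e-05), and -0.09 for siTAZ against siYAP (95% interval -0.25 to 0.07, adjusted p = 0.349).

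AGO4 (chr1:35808172-35857890, plus strand) had 23.1, 20.4 and 21.5 CPM in siYAP, 29, 34.1 and 31.7 CPM in siTAZ and 18.2, 17.3 and 16.6 CPM in siNT libraries. The groups formed 3 separate levels, with siTAZ uppermost. AGO4 was 1.82-fold higher with siTAZ than with siNT (log2 fold change 0.86, SE 0.09, adjusted p = 4.77e-12) and rose less with siYAP (0.32, SE 0.09, adjusted p = 0.00252). The difference of siTAZ against siYAP was 0.55 (SE 0.09, adjusted p = 2.18e-07).

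AGO4, AGO1 and AGO3 lie head to tail on the plus strand of chromosome 1. In GENCODE 29, 11917 bases separate the end of AGO4 from the start of AGO1, and 189 bases separate the end of AGO1 from the start of AGO3. In siYAP cells the middle gene of the row fell while its neighbours on either side rose. RefSeq promoter windows run from 250 bases before to 50 bases after an annotated start (GRCh38.p14). Those of AGO1 and AGO3 are shown because these close neighbours moved in opposite directions. TNRC6C had the largest siYAP fold change of the 10 genes, and of its 4 windows the 1 that holds the word searched below is shown:
AGO1 (chr1:35882959-35883258, plus strand): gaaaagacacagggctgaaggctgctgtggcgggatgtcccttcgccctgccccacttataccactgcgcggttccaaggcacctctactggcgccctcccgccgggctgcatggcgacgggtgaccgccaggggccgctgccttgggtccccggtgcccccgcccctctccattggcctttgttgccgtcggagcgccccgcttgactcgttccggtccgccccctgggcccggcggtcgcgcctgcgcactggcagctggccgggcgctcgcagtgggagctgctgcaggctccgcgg
AGO3 (chr1:35930855-35931154, plus strand): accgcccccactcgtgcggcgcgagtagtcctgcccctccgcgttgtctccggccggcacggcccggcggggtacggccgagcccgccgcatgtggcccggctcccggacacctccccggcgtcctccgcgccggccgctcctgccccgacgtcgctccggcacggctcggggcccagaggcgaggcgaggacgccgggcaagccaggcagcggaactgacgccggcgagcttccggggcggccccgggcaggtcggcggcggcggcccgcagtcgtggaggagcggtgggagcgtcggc
TNRC6C (chr17:77957307-77957606, plus strand): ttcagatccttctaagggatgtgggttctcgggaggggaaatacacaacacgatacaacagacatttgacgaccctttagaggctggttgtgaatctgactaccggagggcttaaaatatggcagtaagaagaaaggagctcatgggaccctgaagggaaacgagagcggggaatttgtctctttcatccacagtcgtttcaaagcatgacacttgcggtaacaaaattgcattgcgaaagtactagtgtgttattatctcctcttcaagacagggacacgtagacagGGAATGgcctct
GGAATG, a core word of TEAD binding sites, was searched on both strands and is in capitals where found. It occurred in 14% of 35116 RefSeq promoter windows, and in 2 of the 16 windows of the 9 machinery genes with an entry: the TNRC6C window above and 1 of 5 DICER1 windows. In the TNRC6C window it lay at bases 39 to 44, counted from the annotated start as base 1, and the other 3 TNRC6C windows held none. GC content was 72.3% for the AGO1, 80.0% for the AGO3 and 46.3% for the TNRC6C window shown, with a median of 58.7% over all windows. The TNRC6C windows without the word had 69.3%, 39.3% and 52.7%. The RefSeq starts of AGO1, AGO3 and TNRC6C in these windows differ from the GENCODE gene starts given for them. The AGO1 and AGO3 windows lie inside those genes as GENCODE places them, and the TNRC6C window lies before its gene. A match is a description of these letters and not of binding.

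The TNRC6 transcripts rose together with siYAP and did not move together with siTAZ. TNRC6A, a GW182 protein of cytoplasmic P-bodies (chr16:24610209-24827632, plus strand), had 268, 248 and 245 CPM in siYAP, 175, 175 and 166 CPM in siTAZ and 155, 153 and 142 CPM in siNT libraries. No group overlapped another. It was 1.69-fold higher with siYAP than with siNT (log2 fold change 0.76, SE 0.04, adjusted p = 1.51e-25) and rose by 0.20 on the log2 scale with siTAZ (SE 0.04, adjusted p = 0.000102). Against siYAP, siTAZ cells had a log2 difference of -0.56 (SE 0.04, adjusted p = 1.49e-19).

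TNRC6B (chr22:40044817-40335808, plus strand) had 63.4, 60.7 and 61.7 CPM in siYAP, 22.6, 21.0 and 18.5 CPM in siTAZ and 35.8, 32.6 and 33.9 CPM in siNT libraries. The 3 groups were separate, with siYAP uppermost and siTAZ lowest. It rose 1.82-fold with siYAP (log2 fold change 0.86, SE 0.07, adjusted p = 6.38e-17) and fell 1.65-fold with siTAZ (-0.72, SE 0.08, adjusted p = 1.7e-11). The siTAZ level was 2.99-fold below the siYAP level (log2 -1.58, SE 0.08, adjusted p = 3.21e-28), the largest siTAZ against siYAP difference among the 10 genes.

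TNRC6C (chr17:77959240-78108835, plus strand) had 47.6, 49.5 and 45.3 CPM in siYAP, 26.3, 22.1 and 19.3 CPM in siTAZ and 22.0, 23.9 and 24.9 CPM in siNT libraries. The siYAP libraries stood above the rest, while siTAZ and siNT overlapped. TNRC6C was 2.01-fold higher with siYAP than with siNT (log2 fold change 1.01, SE 0.08, adjusted p = 8.53e-17), whereas with siTAZ the 95% interval against siNT was -0.25 to 0.12 on the log2 scale (adjusted p = 0.627). The siTAZ against siYAP difference was -1.07 (SE 0.08, adjusted p = 6.63e-18). TNRC6C-AS1, annotated on the opposite strand with 1438 shared exon bases, had 1 to 12 counts per library. TNRC6B thus changed in opposite directions under the 2 siRNAs, and TNRC6A rose with both and further with siYAP.

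**Figure D2:**
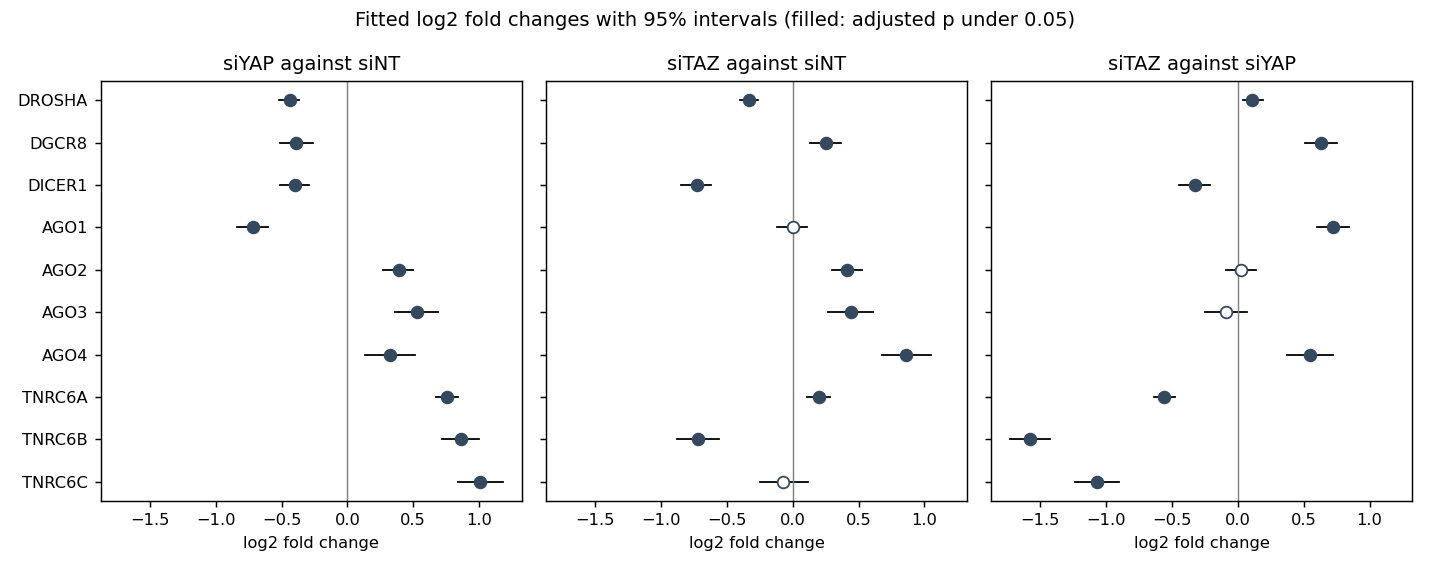
Fitted log2 fold changes (x axis) of the 10 genes in the 3 comparisons, with 95% intervals from the edgeR fit over all 9 libraries. Filled points passed an adjusted p of 0.05; DROSHA and DICER1 lie left of 0 in both knockdowns, AGO2, AGO3, AGO4 and TNRC6A lie right of 0 in both, and DGCR8 and TNRC6B change sides.

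The median log2 fold change of the 10 genes was 0.35 with siYAP, 0.10 with siTAZ and -0.03 for siTAZ against siYAP, beside 0.02, 0.01 and -0.01 over all genes tested. The median absolute log2 fold change of the 10 genes was 0.48 with siYAP and 0.37 with siTAZ, beside 0.45 and 0.19 over all genes tested. In a test against a fold of 1.5, AGO1, TNRC6A, TNRC6B and TNRC6C kept their call in siYAP against siNT, AGO4 alone of the 10 kept it in siTAZ against siNT, and AGO1, TNRC6B and TNRC6C kept it in siTAZ against siYAP. In the same order of comparisons, that test called 3852, 342 and 3633 of the 15560 genes tested.

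Per length of annotated exon, the order of the transcripts was the same at the top in every group. DROSHA stood first at 25.2 ± 0.536 CPM per kb in siYAP, 27.3 ± 0.508 in siTAZ and 34.3 ± 0.551 in siNT cells, followed by TNRC6A at 19.6 CPM per kb in siYAP, 13.3 in siTAZ and 11.6 in siNT cells, and by DGCR8 at 6.27, 9.73 and 8.19 CPM per kb in siYAP, siTAZ and siNT cells. Below them the order changed with the knockdown. In siYAP cells it ran DICER1 (5.48 CPM per kb), AGO2 (4.94), TNRC6C (4.27), AGO1 (3.33), TNRC6B (3.10), AGO4 (2.98) and AGO3 (1.81), and only the ranges of TNRC6B and AGO4 overlapped as neighbours. In siTAZ cells it ran AGO1 (5.48 CPM per kb), AGO2 (5.02), DICER1 (4.36), AGO4 (4.35), TNRC6C (2.03), AGO3 (1.70) and TNRC6B (1.03), where AGO1 and AGO2, DICER1 and AGO4, and TNRC6C and AGO3 overlapped as neighbours. In siNT cells it ran DICER1 (7.24 CPM per kb), AGO1 (5.50), AGO2 (3.78), AGO4 (2.39), TNRC6C (2.12), TNRC6B (1.70) and AGO3 (1.25), with no overlap between neighbours. These orders and overlaps hold for the length of all annotated exons of a gene and were not recomputed with the longest transcript.

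AGO2 held the largest share of the Argonaute transcript pool in siYAP cells, and AGO1 held it in siNT cells. Of the summed Argonaute CPM per kb, AGO1 made up 25.5% ± 0.366 in siYAP, 33.1% ± 2.06 in siTAZ and 42.6% ± 0.634 in siNT cells (SD, n = 3 each). AGO2 made up 37.9% ± 1.37 in siYAP, 30.3% ± 0.908 in siTAZ and 29.2% ± 1.72 in siNT cells. AGO4 made up 22.8% ± 0.71 in siYAP, 26.3% ± 2.31 in siTAZ and 18.5% ± 0.348 in siNT cells, and AGO3 made up 13.8% ± 0.841, 10.3% ± 0.507 and 9.74% ± 1.61 in siYAP, siTAZ and siNT cells. In an exact two-sided permutation test of each share, p was 0.1, the smallest that 3 against 3 libraries allow, for all 4 paralogs in siYAP against siNT and in siTAZ against siYAP, and for AGO1 and AGO4 in siTAZ against siNT; AGO2 (p = 0.4) and AGO3 (p = 0.8) overlapped there. Shares within a family add up to the whole, so these p-values are not independent of each other. The AGO1 share was lower in siTAZ than in siNT cells although its level was alike (5.48 ± 0.389 and 5.5 ± 0.198 CPM per kb). AGO2, AGO3 and AGO4 were higher there. The summed pool was 13.1 ± 0.441 CPM per kb in siYAP, 16.6 ± 0.252 in siTAZ and 12.9 ± 0.453 in siNT cells. The siYAP pool thus overlapped the siNT pool in size while its composition did not.

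The TNRC6 pool was larger in siYAP cells, at 27.0 ± 1.08 CPM per kb, against 16.4 ± 0.785 in siTAZ and 15.5 ± 0.447 in siNT cells. TNRC6A supplied most of it in every group, with 72.7% ± 0.805 in siYAP, 81.4% ± 1.72 in siTAZ and 75.2% ± 1.32 in siNT cells. TNRC6B supplied 11.5% ± 0.31 in siYAP, 6.3% ± 0.336 in siTAZ and 11% ± 0.518 in siNT cells, a share that overlapped between siYAP and siNT (exact permutation p = 0.4) and was lowest in all 3 siTAZ libraries. TNRC6C supplied 15.8% ± 0.756, 12.3% ± 1.39 and 13.8% ± 1.21 in siYAP, siTAZ and siNT cells (exact permutation p = 0.1 for siYAP and 0.3 for siTAZ against siNT).

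**Figure D3:**
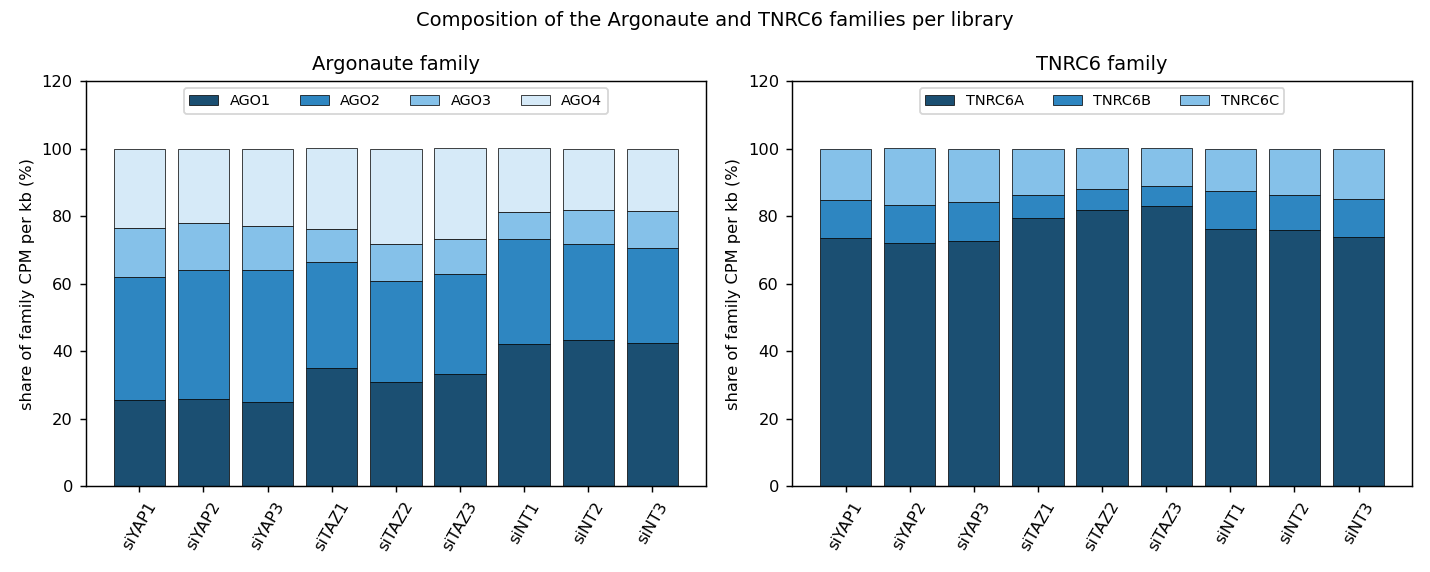
Share of summed CPM per kb of exon (y axis, percent) held by each paralog of the Argonaute family (left) and of the TNRC6 family (right) in each of the 9 libraries. The AGO1 segment is 25.1% to 25.8% in the siYAP, 31% to 35.1% in the siTAZ and 42% to 43.2% in the siNT libraries.

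An siRNA can also act on messages that match its seed, in the manner of a microRNA. Earlier inspection of these same data had linked the 3' UTR word GGATAA to siYAP and ATGAAC to siTAZ, so their presence is given only as a description. GGATAA occurs in 25.5% and ATGAAC in 30.4% of 13257 tested genes with an annotated 3' UTR, and both are common in long UTRs. GGATAA was absent from the 3' UTRs of DROSHA, DGCR8, DICER1, TNRC6A and TNRC6C, and it occurred 2 times in AGO1, 3 times in AGO2, 2 times in AGO3, 3 times in AGO4 and 2 times in TNRC6B. ATGAAC was absent from DGCR8, AGO4 and TNRC6A, and it occurred 1 time in DROSHA, 3 times in DICER1, 4 times in AGO1, 1 time in AGO2, 2 times in AGO3, 4 times in TNRC6B and 2 times in TNRC6C. Of the genes that fell, AGO1 held GGATAA in siYAP, and DROSHA, DICER1 and TNRC6B held ATGAAC in siTAZ, while AGO2, AGO3, AGO4 and TNRC6B rose in siYAP cells although they held GGATAA. Likewise AGO2 and AGO3 rose in siTAZ cells although they held ATGAAC, and AGO1 and TNRC6C, which also held it, did not pass there. AGO1, AGO2, AGO3 and TNRC6B have 3' UTRs of 10921, 11888, 16755 and 12567 bases, lengths at which 85.4% to 95.3% of genes of similar UTR length hold a given word of the pair. For the other holders these shares were lower. They were 53.1% for GGATAA at the length of AGO4 (mean 0.785 words per gene). For ATGAAC they were 17.7% at the length of DROSHA (mean 0.2), 59.7% of DICER1 (0.961) and 56.8% of TNRC6C (0.898). The part of these words in the results was not tested.

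Among 118 further genes of the pathway in 6 lists, 105 were tested. In siYAP against siNT 26 rose and 52 fell, in siTAZ against siNT 21 rose and 36 fell, and in siTAZ against siYAP 55 were higher and 29 lower. These are 74.3%, 54.3% and 80.0% of the tested genes, against 67.1%, 34.6% and 66.2% of all genes.

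**Figure D4:**
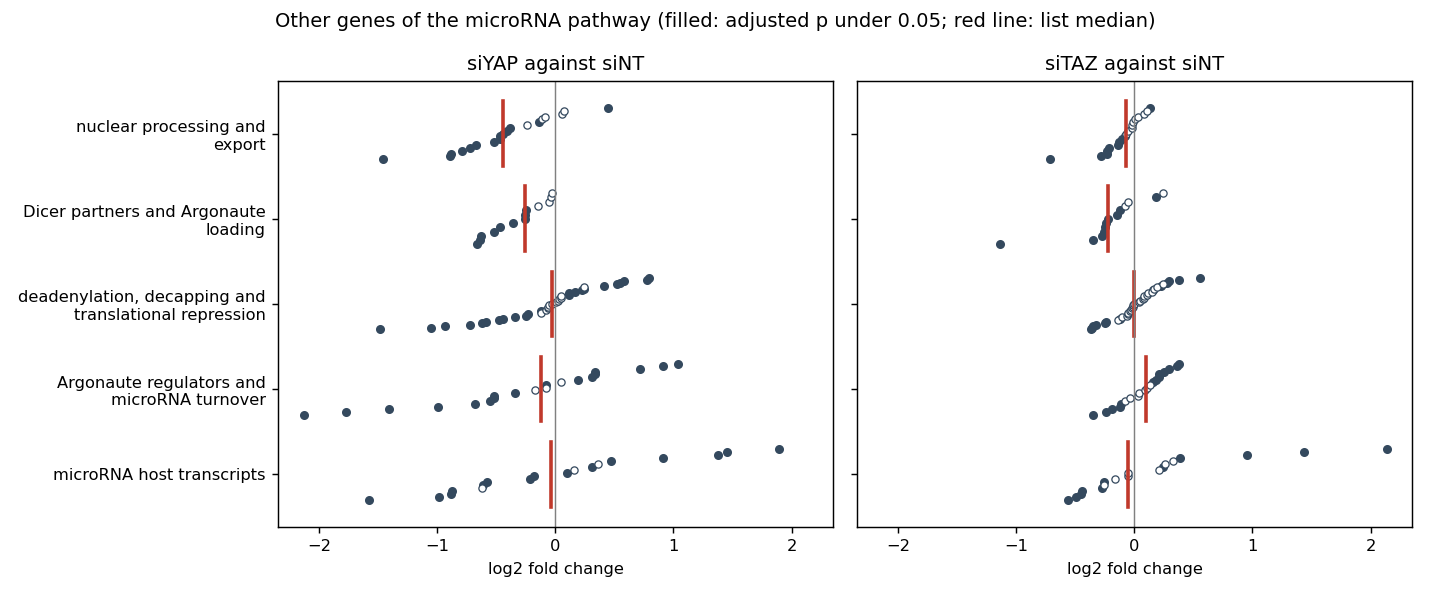
Log2 fold changes (x axis) of the tested genes of 5 pathway lists in siYAP against siNT (left) and siTAZ against siNT (right). Each point is a gene, filled where the adjusted p was under 0.05, and red lines are list medians; the nuclear processing list has its median at -0.44 with siYAP and -0.07 with siTAZ.

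Nuclear processing and export factors were mostly lower in siYAP cells. Of 19 tested, 13 fell and 1 rose with siYAP (median log2 fold change -0.44, against 0.02 over all genes), and 9 fell and 1 rose with siTAZ (median -0.07, against 0.01). Of all genes tested, 33.4% fell and 33.8% rose with siYAP, and 18.2% fell and 16.4% rose with siTAZ. ADARB1, an adenosine deaminase that edits double-stranded RNA, averaged 56.0 ± 2.42 CPM in siYAP, 94.2 ± 2.38 CPM in siTAZ and 154 ± 3.16 CPM in siNT cells (log2 fold change -1.46 with siYAP, adjusted p = 2.61e-36, and -0.71 with siTAZ, adjusted p = 2.7e-20). Its relative ADAR rose with siYAP (0.45, adjusted p = 9.09e-19). SRSF3, a splicing factor known to aid Microprocessor cleavage, fell by 0.88 with siYAP, and RAN, the GTPase that drives nuclear export of hairpins with Exportin-5, fell by 0.79. KHSRP, a binder of some hairpin loops, fell by 0.72 with siYAP and by 0.28 with siTAZ, and with siTAZ DDX5, a Microprocessor helicase, rose by 0.13. XPO5, Exportin-5 itself, had 72.8 ± 2.55, 84.5 ± 0.996 and 78.4 ± 2.19 CPM in siYAP, siTAZ and siNT cells and did not pass against siNT with either siRNA (adjusted p = 0.0714 and 0.103). Against siYAP, 14 of the 19 were higher with siTAZ and 1 was lower (median 0.37, against -0.01 over all genes), among them SRSF3 (0.75), RAN (0.56) and HNRNPA2B1 (0.53) higher and ADAR (-0.47) lower. Of all genes tested, 33.0% were higher and 33.2% lower in that comparison.

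Of 13 tested Dicer partners and chaperones that load Argonaute, 9 fell with siYAP and the other 4 did not pass (median -0.26; 33.4% of all genes fell), and 9 fell and 1 rose with siTAZ (median -0.22; 18.2% of all genes fell). The chaperone HSP90AB1 fell by 0.66, HSP90AA1 by 0.63 and HSPA8 by 0.47 with siYAP, and with siTAZ these fell by 0.27, 0.35 and 0.26. FKBP4, an HSP90 cochaperone, fell furthest with siTAZ, to 81.3 ± 2.53 CPM, and averaged 115 ± 5.80 CPM in siYAP and 179 ± 4.42 CPM in siNT cells (log2 fold change -1.14, SE 0.05, adjusted p = 4.6e-31 in siTAZ against siNT). TARBP2, the double-stranded RNA-binding partner of Dicer, was the gene that rose with siTAZ (0.18, SE 0.07, adjusted p = 0.0442), and it fell with siYAP (-0.26, adjusted p = 0.00187). Against siYAP, 7 of the 13 were higher with siTAZ, HSP90AB1 (0.39), TSN (0.48) and HSP90AA1 (0.28) among them, and FKBP4 (-0.50) and PTGES3 (-0.17) were lower. In that comparison 33.0% of all genes were higher and 33.2% lower.

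Of 35 deadenylation, decapping and repression factors, which act downstream of TNRC6, 11 rose and 12 fell with siYAP (median -0.03), and 6 rose and 7 fell with siTAZ (median 0.00). These shares are near those of all genes, of which 33.8% rose and 33.4% fell with siYAP and 16.4% rose and 18.2% fell with siTAZ. Within the CCR4-NOT deadenylase, CNOT9, the subunit that docks TNRC6, averaged 159 ± 5.53 CPM in siYAP, 95.1 ± 4.90 CPM in siTAZ and 92.5 ± 3.91 CPM in siNT cells (log2 fold change 0.78 with siYAP, SE 0.05, adjusted p = 2.01e-23), and the catalytic CNOT8 rose by 0.58. PAN3, which also binds TNRC6 and recruits the PAN2 nuclease, averaged 33.0 ± 1.37 CPM in siYAP, 61.3 ± 4.13 CPM in siTAZ and 63.0 ± 1.82 CPM in siNT cells (-0.93 with siYAP, SE 0.07, adjusted p = 5.25e-20). PAN2 rose with siTAZ to 32.9 ± 2.98 CPM, against 22.3 ± 2.01 CPM in siNT cells (0.56, SE 0.09, adjusted p = 6.98e-07). The LSM ring members LSM4 (-1.05) and LSM3 (-0.72), which help decapping and also splicing, fell with siYAP, and the translational repressor GIGYF1 rose with siYAP (0.55) and with siTAZ (0.38). With siTAZ the poly(A)-binding protein PABPC1 fell by 0.36, LSM14B by 0.32 and the helicase DDX6 by 0.25, and the deadenylase CNOT6 rose by 0.28. Of the 35, 17 were higher and 13 lower in siTAZ than in siYAP cells, with LSM4 (1.04), PAN3 (0.89) and LSM3 (0.69) higher and CNOT9 (-0.74), DCP2 (-0.78) and CNOT8 (-0.60) lower. Over all genes, 33.0% were higher and 33.2% lower there.

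Regulators of Argonaute and of microRNA turnover included AJUBA, which had the largest siYAP fold change of the tested pathway genes. Of 20 tested, 7 rose and 10 fell with siYAP (median -0.12), beside 33.8% and 33.4% of all genes, and 8 rose and 5 fell with siTAZ (median 0.10), beside 16.4% and 18.2% of all genes. AJUBA, a LIM protein that binds Argonaute and is also a Hippo pathway component, averaged 61.0 ± 2.40 CPM in siYAP, 259 ± 2.85 CPM in siTAZ and 267 ± 13.7 CPM in siNT cells (log2 fold change -2.13 with siYAP, SE 0.04, adjusted p = 1.7e-48). IPO8, an importin linked to Argonaute, averaged 66.8 ± 3.50, 168 ± 3.92 and 178 ± 6.57 CPM in siYAP, siTAZ and siNT cells (-1.41 with siYAP, SE 0.05, adjusted p = 2.9e-37). ANKRD52, a subunit of the phosphatase that clears phosphate from Argonaute, had 111 ± 6.77 CPM in siYAP, 264 ± 10.8 CPM in siTAZ and 221 ± 7.82 CPM in siNT cells, lower with siYAP (-0.99) and higher with siTAZ (0.25). CSNK1A1, the kinase that adds that phosphate, fell by 0.24 with siTAZ. P4HA1, a collagen prolyl 4-hydroxylase subunit that can also hydroxylate AGO2, averaged 109 ± 9.22 CPM in siYAP, 61.5 ± 2.38 CPM in siTAZ and 53.1 ± 0.889 CPM in siNT cells (1.04 with siYAP, SE 0.06, adjusted p = 2.79e-25). ZSWIM8, the ubiquitin ligase receptor of target-directed microRNA decay, rose with siYAP (0.72) and with siTAZ (0.36), the uridylyltransferase TUT7 rose with siYAP (0.91) and fell with siTAZ (-0.19), and the helicase MOV10 rose with siYAP (0.34) and with siTAZ (0.38). The AJUBA relative LIMD1 (-0.52 with siYAP, -0.35 with siTAZ) and the nuclease SND1 (-0.08 and -0.12) fell with both. Against siYAP, siTAZ cells had more AJUBA (2.09), IPO8 (1.33) and ANKRD52 (1.24) and less TUT7 (-1.10), P4HA1 (-0.83) and ZSWIM8 (-0.36).

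Of 18 tested host transcripts of microRNAs, 7 rose and 8 fell with siYAP (median log2 fold change -0.04), where 33.8% and 33.4% of all genes did, and 5 rose and 6 fell with siTAZ (median -0.05), where 16.4% and 18.2% of all genes did. MIR34AHG, host of the p53-induced miR-34a, had 39.1, 28.2 and 30.6 CPM in siYAP, 18.2, 16.5 and 16.2 CPM in siTAZ and 8.43, 7.88 and 10.0 CPM in siNT libraries. Its 3 groups were separate, and it rose by 1.89 with siYAP (SE 0.11, adjusted p = 2.39e-22) and 0.95 with siTAZ (SE 0.12, adjusted p = 2.18e-09) on the log2 scale. MIR503HG, host of miR-503, had 16.7, 14.6 and 11.8 CPM in siYAP, 33.6, 35.9 and 38.9 CPM in siTAZ and 39.0, 43.5 and 46.8 CPM in siNT libraries, with a log2 fold change of -1.58 with siYAP (SE 0.09, adjusted p = 2.46e-22) and -0.26 with siTAZ (SE 0.08, adjusted p = 0.0132). DLEU2, host of miR-15a and miR-16, fell with siYAP (-0.58, adjusted p = 2.35e-05). CARMN, host of miR-143 and miR-145, had 0.798, 0.783 and 0.65 CPM in siYAP, 4.93, 6.55 and 8.13 CPM in siTAZ and 1.30, 1.21 and 1.92 CPM in siNT libraries, and rose by 2.14 with siTAZ (SE 0.26, adjusted p = 5.69e-10). The mature microRNAs of these hosts are shown, seeds in capitals, because they are the products that the Microprocessor and DICER1 would cut from them:
hsa-miR-34a-5p (chr1:9151735-9151756, minus strand): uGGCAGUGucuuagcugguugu
hsa-miR-503-5p (chrX:134546371-134546393, minus strand): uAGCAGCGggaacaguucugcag
hsa-miR-15a-5p (chr13:50049167-50049188, minus strand): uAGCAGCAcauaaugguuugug
hsa-miR-16-5p (chr13:50049027-50049048, minus strand): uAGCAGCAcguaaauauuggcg
hsa-miR-143-3p (chr5:149428978-149428998, plus strand): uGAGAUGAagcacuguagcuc
hsa-miR-145-5p (chr5:149430661-149430683, plus strand): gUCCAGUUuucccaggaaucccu
miR-15a and miR-16 share the seed AGCAGCA, and miR-503 has the seed AGCAGCG. DLEU2 and MIR503HG, the hosts listed for them here, were both lower in siYAP than in siNT cells. Other hosts that rose with siYAP were MIR210HG (1.45) and MIR23AHG (0.47, and 0.24 with siTAZ), and MIRLET7BHG fell (-0.88). With siTAZ, VMP1, whose gene contains miR-21, rose by 0.39 to 247 ± 12.1 CPM, against 189 ± 7.30 CPM in siNT cells, and MIR4435-2HG (-0.44), MIR222HG (-0.49) and MIR31HG (-0.45) fell; with siYAP their log2 fold changes were -0.18, 0.31 and -0.61, all called. In siTAZ against siYAP, 7 hosts were higher and 7 lower, with MIR503HG (1.33) and CARMN (3.12) higher and MIR34AHG (-0.94), MIR210HG (-1.61) and MIR222HG (-0.80) lower. Over all genes, 33.0% were higher and 33.2% lower there. A host's level does not give the level of the microRNA cut from it.

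PIWI proteins, the Argonaute relatives that carry piRNAs in the germ line, and germline piRNA factors had few or no counts. None of the 7 genes listed passed the filter: PIWIL1, DDX4 and TDRD1 had 0 counts in all 9 libraries, and no library had more than 12 counts of PIWIL2, 10 of PIWIL4, 3 of PIWIL3 or 4 of MAEL. 

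Profiles over the 9 libraries most like those of the 2 genes with the largest F statistic over the groups were sought among 6787 well-expressed genes. TNRC6B was followed most closely by LRP1 and USP32 (Pearson r = 0.997 each) and DCBLD2 (0.996), and TNRC6A by C2CD2 (0.996), TET2 (0.995) and ZMAT3 (0.995). LRP1, an endocytic receptor, averaged 779 ± 57.0 CPM in siYAP, 244 ± 18.2 CPM in siTAZ and 404 ± 30.5 CPM in siNT cells. As 309 genes exceeded 0.95 with TNRC6B and 593 with TNRC6A, and the 9 libraries form 3 groups, these likenesses follow the group means and are given as a description.

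Markers of other cell types stood beside these values. Summed stellate marker CPM was 4993 to 5074 in siYAP, 14065 to 14104 in siTAZ and 9545 to 9647 in siNT libraries (10 of 11 markers had counts, DES only 0 to 14 per library). Its members went both ways: with siYAP 4 of the 9 tested rose (COL1A2, ACTA2, TIMP1 and RGS5) and 5 fell, and COL1A1, SPARC and COL3A1 carry most of the sum. Summed macrophage and leukocyte markers were 126 to 131 CPM in siYAP, 21.6 to 24.6 CPM in siTAZ and 33.5 to 36.6 CPM in siNT libraries. CD68, most of the siYAP sum, averaged 115 ± 2.11, 12.4 ± 1.99 and 22.3 ± 0.977 CPM in siYAP, siTAZ and siNT cells. MS4A1 was at 0 counts throughout and CD3E at 1 count in all. These markers also went both ways: with siYAP CD68 (log2 fold change 2.36) and ITGAM (3.47) rose, PTPRC (-4.09) fell and CD14 (0.04) did not pass. With siTAZ CD68 (-0.84) and PTPRC (-2.59) fell, and CD14 and ITGAM did not pass. Summed epithelial markers were 83.6 to 87.0, 69.3 to 72.8 and 51.3 to 53.5 CPM in siYAP, siTAZ and siNT libraries, most of it SOX9. KRT19 had 0 to 10, EPCAM 0 to 5 and CDH1 0 to 7 counts per library and did not pass the filter. Summed endothelial markers were 8.51 to 11.6, 3.36 to 4.48 and 7.87 to 8.57 CPM in those groups, with LYVE1 at 0. With siYAP the endothelial genes PECAM1 (log2 fold change 3.60) and KDR (1.25) rose, and CDH5 (-3.81) and VWF (-2.22) fell. Summed hepatocyte markers were 12.8 to 15.8, 0.866 to 2.13 and 1.84 to 2 CPM, mostly SERPINA1, with TTR at 0. The part of these markers in the results was not tested.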

How the data were processed

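The files hold raw counts of reads per Ensembl gene, 1 library each; per the submitters' processing notes the authors used Trim Galore, HTSeq, STAR 2.5.0c, Picard and SAMtools to make these counts before they were deposited, without stated settings. Those notes name the mouse build mm10, although every gene ID is human, and no strand setting is recorded. Grouping followed the sample titles; the design text calls the 3 samples of a group biological replicates. Rows for unassigned reads were left out of library sizes (no feature, 4.734% to 7.493%; ambiguous, 6.329% to 6.912%).

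The analysis ran in edgeR 4.0.16 (R 4.3.3): filterByExpr (minimum count 10, minimum total 15), TMM scaling, a robust quasi-likelihood fit of 3 group means to the 9 libraries (common BCV, the biological coefficient of variation, 0.0469) and Benjamini-Hochberg adjustment over the 15560 genes tested, called at an adjusted p under 0.05. A count was worth 0.0522 to 0.0591 CPM. Symbols came from a gene name table, coordinates and exon lengths from GENCODE 29 on GRCh38, and promoter and microRNA sequences from RefSeq GRCh38.p14. Replicate libraries differed by more than counting noise (chi-square per degree of freedom 2.54 to 5.03). These values were not compared with a library known to have been sequenced again. Separate preparations from 1 culture could not be told apart this way. The fit was checked on simulated data. Alternatives were scaling by upper quartile or RLE, an unfiltered table and CPM of at least 1 in 3 libraries, a replicate block, the compared groups alone, DESeq2 1.42.0, limma-voom (limma 3.58.1), each library left out, an adjusted p under 0.01, a test against a fold of 1.5, and longest-transcript length.

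The genes and lists were chosen with earlier results of these data known. Named genes besides the 10 were, per list and comparison, up to 3 called genes with the smallest p in each direction (all of them where 5 or fewer were called), the 3 most correlated genes of the 2 members with the largest F, and YAP1 and WWTR1. XPO5 was named after its values were seen. A gene that this rule names is not reported here.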

Additional observations from a re-analysis of the deposited data

How the results depend on the processing

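The numbers of the 10 genes called (10 in siYAP against siNT, 8 in siTAZ against siNT, 8 in siTAZ against siYAP) stood under upper-quartile or RLE scaling, without a filter and with the stricter one, fits of the compared groups alone, DESeq2, limma-voom, an adjusted p under 0.01 and each library left out. Against a fold of 1.5, calls fell to 4, 1 and 3 of the 10 genes, to 23, 4 and 20 pathway genes (78, 57 and 84 otherwise) and to 3852, 342 and 3633 of all genes (10448, 5391 and 10298 otherwise), by that test's construction. Same-numbered libraries did not deviate together (r -0.01 to 0.054), and with the replicate block 10, 8 and 8 of the 10 genes and 79, 57 and 82 pathway genes were called.

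Signs turned only where the fold change was near 0 and not called: AGO1 in siTAZ against siNT became 0.01 with upper-quartile scaling and ranged from -0.06 to 0.04 over libraries left out, TNRC6C there ranged from -0.19 to 0.04, and AGO2 in siTAZ against siYAP from -0.01 to 0.06. No scaling moved the median of all genes by more than 0.0325 (log2). With the longest transcript as length, shares in siYAP, siTAZ and siNT cells became 78.4%, 85.6% and 80.6% for TNRC6A, 8.84%, 4.73% and 8.44% for TNRC6B, and 12.7%, 9.68% and 11% for TNRC6C; AGO1 became 24.6% in siYAP and 41.4% in siNT, AGO2 31.6% in siTAZ and AGO4 18.1% in siNT cells. Sampling covers 1 cell line, 3 libraries a group and 1 siRNA treatment a target, and protein and mature microRNA were not measured.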
